A study of Mus musculus with 30 samples.

Results

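Mitochondrial fatty acid beta-oxidation was described through 10 of its enzymes, CPT2, ACADVL, ACADL, ACADM, HADHA, HADHB, ECHS1, HADH, ACAA2 and ETFDH. The genes were chosen by name, as the entries of the deposited expression table with one of these symbols in upper or lower case. Each symbol matched 1 entry, which gave 10 of the 21073 genes in the table. Beta-oxidation breaks down fatty acids in the mitochondrial matrix, where each turn of the cycle oxidizes the acyl chain, adds water, oxidizes it again and splits off acetyl-CoA. CPT2 completes the carnitine shuttle that brings long chains into the matrix, dehydrogenases of different chain-length preference start each turn, and the electrons that they release reach the respiratory chain through ETFDH. In skeletal muscle the pathway supplies energy at rest, in fasting and in prolonged exercise, and fast muscles rely on it less than slow ones.

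Gene expression had been measured by RNA-Seq in the extensor digitorum longus (EDL), a fast muscle of the lower leg, of 30 female wild-type SJL/J mice, in 6 groups of 5 mice. EAE-induced mice (EAE) had received the myelin proteolipid peptide [Ser140]-PLP139-151 in complete Freund's adjuvant (CFA), which gives experimental autoimmune encephalomyelitis, a relapsing model of multiple sclerosis, and no pertussis toxin was used. OVA-immunized mice (OVA) had received ovalbumin in the same adjuvant, so that they shared the adjuvant but not the myelin antigen, and unimmunized mice (Ctrl) had received neither. Muscles were taken on day 14, at the peak of disease, or on day 40, in remission, from different mice, and the age of the mice is not given in the sources used here. The comparison with Ctrl asks what EAE induction changes in the muscle, with the effect of the adjuvant included. The comparison with OVA asks what remains beside an immunization in the same adjuvant with another antigen.

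Expression was given as RPKM, the reads on the exons of a gene scaled for exon length and for the mapped reads of the library, so that levels can be compared between genes as well as between mice. From the value that a single read takes, the depth was estimated in round figures as 18200000 to 24800000 reads on genes in 29 mice and 31700000 in mouse 3 of the EAE group on day 14. All 9 genes of fast fibres and all 9 of slow fibres used as markers were above 3 RPKM in every group, and the fast genes summed to 54627 RPKM or more in each mouse against at most 3245 RPKM for the slow genes. UCP1, which marks brown adipocytes, another tissue rich in beta-oxidation enzymes, reached at most 1.13 RPKM.

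The promoters of the enzymes were read from RefSeq on the GRCm38.p6 build, as the 250 bases before each annotated start, and 9 of the 10 genes had an entry. The sequences of 5 of them are printed because these genes made up the contrasts described below: HADH, ACADM and ACADVL had lower values in EAE on day 14, ACADL had not, and HADHB shares its promoter with HADHA. Each is given from 5′ to 3′ on the strand of its gene, with capitals for GGGCGG (the GC box) and AAGGTCA (the response element of estrogen-related receptors), each searched on both strands, so that a site on the opposite strand appears as CCGCCC or TGACCTT.
HADH, chr3:131272102-131272351, minus strand: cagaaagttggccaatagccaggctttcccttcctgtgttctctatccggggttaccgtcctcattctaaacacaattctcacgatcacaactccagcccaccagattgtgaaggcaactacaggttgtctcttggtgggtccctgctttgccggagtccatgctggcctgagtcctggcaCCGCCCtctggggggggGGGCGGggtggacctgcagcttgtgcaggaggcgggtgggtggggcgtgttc
ACADM, chr3:153944644-153944893, minus strand: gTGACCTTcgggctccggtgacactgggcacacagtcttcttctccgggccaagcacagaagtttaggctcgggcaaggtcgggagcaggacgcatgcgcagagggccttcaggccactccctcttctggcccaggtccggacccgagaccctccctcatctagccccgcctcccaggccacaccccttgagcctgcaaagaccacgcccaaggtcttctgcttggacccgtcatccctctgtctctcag
ACADVL, chr11:70015429-70015678, minus strand: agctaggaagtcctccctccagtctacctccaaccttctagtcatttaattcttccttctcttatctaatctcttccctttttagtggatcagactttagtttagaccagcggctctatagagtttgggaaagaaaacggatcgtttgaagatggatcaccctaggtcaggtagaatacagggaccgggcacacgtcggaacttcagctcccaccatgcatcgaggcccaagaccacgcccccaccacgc
ACADL, chr1:66863310-66863559, minus strand: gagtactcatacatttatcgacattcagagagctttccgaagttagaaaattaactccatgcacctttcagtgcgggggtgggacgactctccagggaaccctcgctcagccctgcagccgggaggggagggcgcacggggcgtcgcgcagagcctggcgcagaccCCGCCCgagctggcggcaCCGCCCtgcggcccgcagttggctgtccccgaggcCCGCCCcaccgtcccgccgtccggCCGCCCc
HADHB, chr5:30155003-30155252, plus strand: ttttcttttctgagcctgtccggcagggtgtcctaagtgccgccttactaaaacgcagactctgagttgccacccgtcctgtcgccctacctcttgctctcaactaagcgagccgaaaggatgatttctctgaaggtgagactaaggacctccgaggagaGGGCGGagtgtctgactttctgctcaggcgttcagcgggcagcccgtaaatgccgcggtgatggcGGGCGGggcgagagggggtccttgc

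ACADL held 4 GC boxes in these 250 bases, HADH and HADHB held 2 each, and ACADM and ACADVL held none. A GC box was found in 6 of the 9 promoters of the enzymes (ACADL, HADH, CPT2, HADHA, HADHB and ECHS1) and in 32.7% of all 32851 promoters of the same length. AAGGTCA was found in ACADM alone among the 9, at the far end of the window, and in 4.08% of all promoters. The direct repeat bound by PPAR with RXR, searched as AGGTCA, any base and AGGTCA, which can contain AAGGTCA, was found in none of the 9 and in 0.0335% of all promoters, and a form of the NRF1 site, searched as GCGCA, any base and GCGC, was found in ETFDH alone and in 3.74% of all. These are matches of letters within 1 window of each gene and were not tested for binding. HADHA and HADHB lie head to head on chromosome 5, on opposite strands, with their starts 273 bases apart at positions 30154980 and 30155253. As a result, 228 of the 250 bases before either start are the same DNA. The 1 GC box of HADHA lies there and is also a GC box of HADHB, so this site was counted for both promoters.

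In unimmunized mice on day 14, ACADVL (very long-chain acyl-CoA dehydrogenase, chr11:70010183-70015428) was the most abundant of the enzymes at 304 ± 58.0 RPKM (SD, n = 5), followed by ACADM (medium-chain acyl-CoA dehydrogenase, chr3:153922353-153944643) at 248 ± 45.9 RPKM. ACADL (long-chain acyl-CoA dehydrogenase, chr1:66830839-66863309) at 176 ± 45.8 RPKM, HADH (chr3:131233419-131272101) at 166 ± 24.9 RPKM and ACAA2 at 164 ± 33.4 RPKM came next, and these 3 neighbours did not differ beyond the spread between mice. HADHA (chr5:30119423-30154980) at 134 ± 25.6 RPKM and ECHS1 (chr7:140105710-140116421) at 114 ± 7.71 RPKM overlapped as well. ETFDH (chr3:79603788-79628767) at 77.1 ± 20.0 RPKM, HADHB (chr5:30155253-30184593) at 46.9 ± 15.0 RPKM and CPT2 (chr4:107903982-107923589) at 34.3 ± 5.60 RPKM had the lowest means. Thus the chain-length dehydrogenases that open the cycle had the highest means and the transferase at the entry had the lowest. ETFDH, HADHB and CPT2 held the last 3 places, in this order, in all 6 groups. ACADVL and ACADM held the first 2 places in 5 groups. The spans of ECHS1 and ETFDH overlap with those of Paox (687 bases) and Ppid (23 bases), and that of ACADL with the pseudogene Gm15793 (631 bases), so reads of these stretches may be uncertain. In EAE on day 14 ACADL came first, ahead of ACADVL and ACADM, and HADH stood in the seventh place, below ACAA2.

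**Figure D1:**
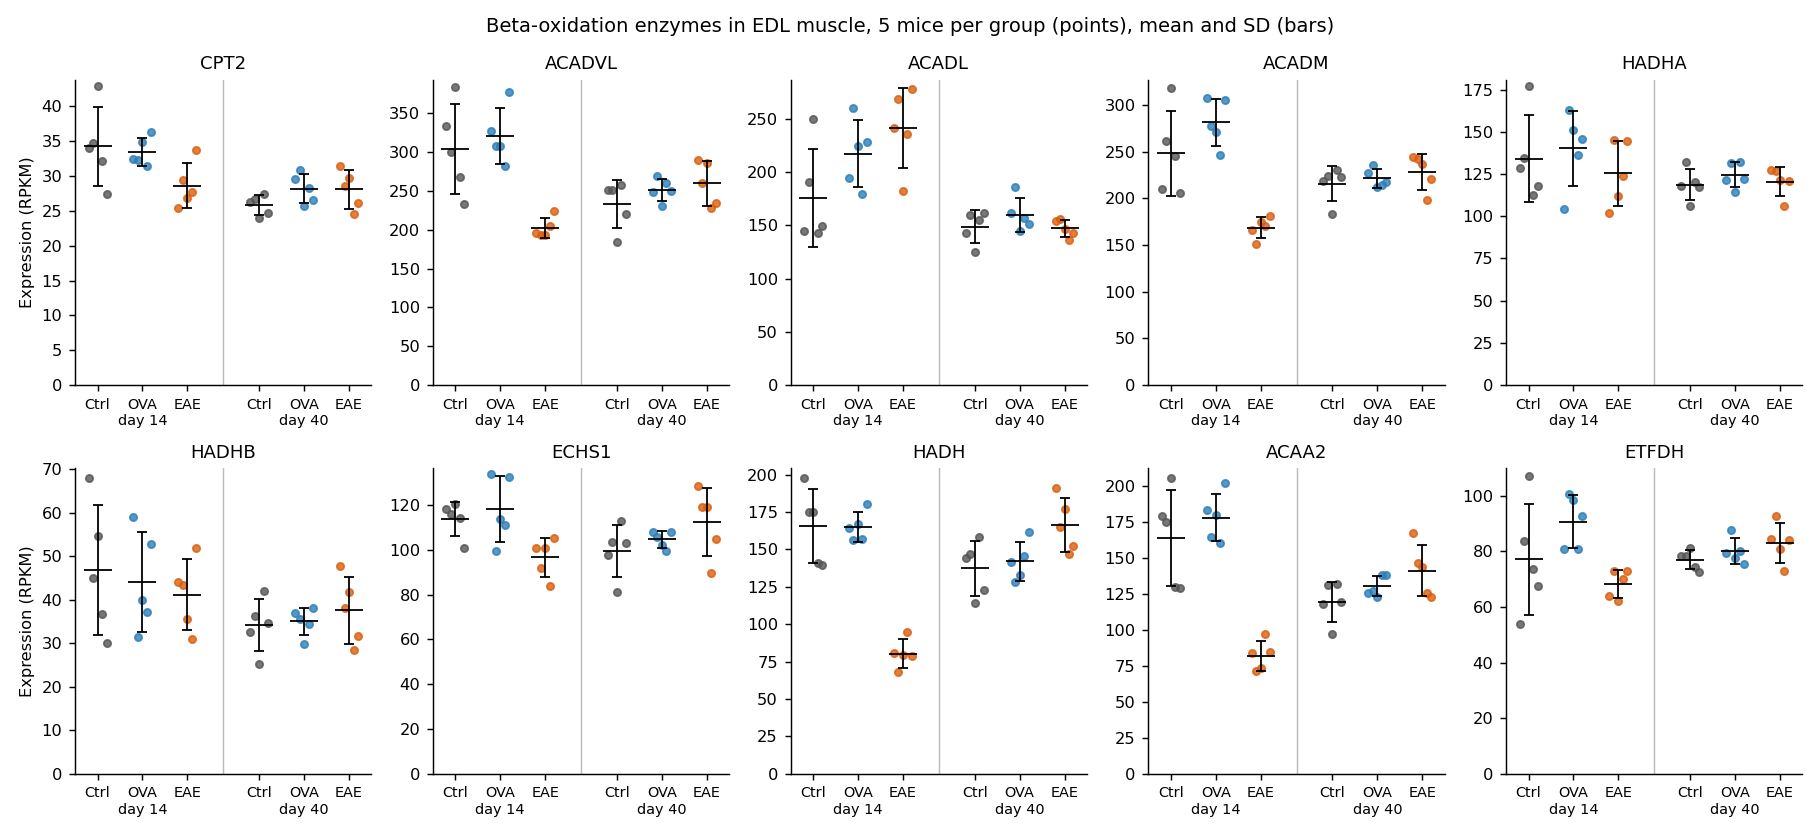
Expression of the 10 enzymes in RPKM (vertical axes, from 0) in Ctrl, OVA and EAE mice on day 14 and day 40. Each point is 1 mouse and the bars give the mean and SD of 5 mice. On day 14 the EAE points lie below all Ctrl and OVA points of that day in the HADH, ACAA2, ACADM and ACADVL panels and at 182 to 278 RPKM in the ACADL panel, where they overlap with the other groups.

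On day 14, HADH and ACAA2 fell in EAE-induced mice against both controls, ACADM and ACADVL fell against OVA-immunized mice, and no enzyme was called higher against either control, although ACADL passed the p threshold, without the fold threshold, with a value above 0 against Ctrl. A gene was called when the adjusted p of limma was below 0.05 and the fold change above 1.5. Against Ctrl 2 of the 10 enzymes were called lower and 0 higher, where 11.8% of all 8771 tested genes were called lower and 14.6% higher. Against OVA 4 of 10 were called lower and 0 higher, where the shares of all 8674 tested genes were 9.28% and 11%. The 5 EAE mice lay below all 5 Ctrl mice for 4 of the 10 enzymes, where this held for 11% of all genes, and below all 5 OVA mice for 5, where it held for 8.2%. The median log2 fold change of the 10 enzymes was -0.24 against Ctrl and -0.34 against OVA, while that of all tested genes was 0.11 in both comparisons. EAE mice are shared by both comparisons, so their results are not independent of each other. A muscle holds several cell types, and fewer cells of a type cannot be told apart from less RNA per cell in these data.

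HADH, the short-chain 3-hydroxyacyl-CoA dehydrogenase that performs the second oxidation of the cycle, had the lowest log2 fold change of the 10 against Ctrl. The 5 EAE mice had 68.0, 78.8, 79.1, 80.9 and 94.7 RPKM of HADH, the 5 Ctrl mice 139.7, 141, 175, 175 and 198 RPKM and the 5 OVA mice 156, 157, 165, 167 and 180.5 RPKM. Every EAE mouse was below every control mouse, with 94.7 RPKM in the highest EAE mouse and 139.7 RPKM in the lowest control mouse. HADH fell by 1.04 on the log2 scale against Ctrl (SE 0.11, 95% interval -1.28 to -0.80, adjusted p = 6.7e-06, limma) and by 1.04 against OVA (SE 0.11, adjusted p = 8.6e-06, limma).

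ACAA2, the mitochondrial thiolase that releases acetyl-CoA at the end of a turn, showed a difference of similar size. The EAE mice had 71.3, 73.5, 83.7, 84.8 and 97.4 RPKM of ACAA2, against 129, 129.9, 175, 179.5 and 206 RPKM in Ctrl and 161, 165, 179.9, 184 and 202 RPKM in OVA. The EAE group did not overlap with either control group. ACAA2 fell by 0.98 on the log2 scale against Ctrl (SE 0.14, 95% interval -1.27 to -0.69, adjusted p = 5.23e-05, limma) and by 1.12 against OVA (SE 0.14, adjusted p = 1.99e-05, limma). HADH and ACAA2 were called lower in 20 of 20 alternative settings of each comparison.

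The dehydrogenases that open the cycle went different ways. ACADM had 151, 166, 169.9, 175 and 181 RPKM in the EAE mice, 206, 209, 245, 261 and 318 RPKM in Ctrl and 246, 271, 278, 305 and 307 RPKM in OVA, and the EAE group lay below both controls without overlap. The log2 fold change of ACADM against OVA was -0.74 (SE 0.12, adjusted p = 0.000222, limma), and the gene was called. Against Ctrl it was -0.54 (95% interval -0.80 to -0.29, adjusted p = 0.00190, limma), under the fold threshold of 1.5.

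ACADVL, which handles the longest chains at the inner membrane, behaved much like ACADM. Its values were 193, 193, 196, 205 and 225 RPKM in the EAE mice, 233, 268, 301, 334 and 383 RPKM in Ctrl and 282, 308, 308, 327 and 378 RPKM in OVA. The highest EAE mouse was again below the lowest mouse of either control. ACADVL was called against OVA, with a log2 fold change of -0.66 (SE 0.13, adjusted p = 0.000866, limma), whereas -0.57 against Ctrl (95% interval -0.84 to -0.30, adjusted p = 0.00202, limma) was just under the fold threshold. Leaving out mouse 5 of the Ctrl group brought ACADM and ACADVL past that threshold, and 4 enzymes were then called lower against Ctrl.

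ACADL was the 1 enzyme of the 10 with a value above 0 in both comparisons on day 14. The EAE mice had 182, 236, 242, 269 and 278 RPKM of ACADL, the Ctrl mice 143, 145, 149, 191 and 249.6 RPKM and the OVA mice 179, 195, 224, 228 and 259.8 RPKM. The groups overlapped, since the lowest EAE mouse was within the range of both controls. The log2 fold change was 0.48 against Ctrl (SE 0.16, 95% interval 0.13 to 0.83, adjusted p = 0.0260, limma), which passed the p threshold but not the fold threshold, and 0.15 against OVA (95% interval -0.20 to 0.50, adjusted p = 0.498, limma). Without mouse 3 of the Ctrl group, which had the highest ACADL of that group, the value against Ctrl was 0.61 and the gene was called higher.

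HADHA and HADHB, the alpha and beta subunits of the trifunctional protein, which carries out the later steps of the cycle for long chains, were not called. HADHA had 102, 112, 124, 145 and 145 RPKM in the EAE mice and 112, 118, 129, 135 and 177 RPKM in Ctrl, with wide overlap. Its log2 fold change was -0.089 against Ctrl (95% interval -0.41 to 0.23, adjusted p = 0.641, limma) and -0.16 against OVA (95% interval -0.47 to 0.16). HADHB varied more between mice, with 30.0 to 68.1 RPKM in Ctrl, 31.4 to 59.0 RPKM in OVA and 30.9 to 51.9 RPKM in EAE. The HADHB values were -0.15 against Ctrl (95% interval -0.61 to 0.31, adjusted p = 0.587, limma) and -0.083 against OVA (95% interval -0.55 to 0.38), so a decrease of 1.5-fold lay within the HADHB interval against Ctrl.

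CPT2, ECHS1 and ETFDH had smaller values, below 0 in both comparisons. ECHS1, the short-chain enoyl-CoA hydratase, had 84.0, 91.8, 101, 101 and 105 RPKM in the EAE mice, 101, 114, 116, 118 and 120.3 RPKM in Ctrl and 99.4, 111, 114, 132 and 134 RPKM in OVA. Its log2 fold change was -0.24 against Ctrl (adjusted p = 0.0680, limma) and -0.28 against OVA (adjusted p = 0.0398, limma). The groups overlapped in both comparisons, and neither value reached the fold threshold. ETFDH, which passes electrons from the dehydrogenases to ubiquinone, had 62.1, 64.0, 69.9, 72.8 and 73.0 RPKM in EAE, 53.7, 67.4, 73.6, 83.7 and 107 RPKM in Ctrl and 80.7, 80.8, 92.7, 98.4 and 101 RPKM in OVA. The EAE mice lay below all OVA mice, at -0.40 (95% interval -0.71 to -0.092, adjusted p = 0.0396, limma), and overlapped with Ctrl, at -0.14 (95% interval -0.45 to 0.17, adjusted p = 0.448, limma; -0.26 to -0.012 when 1 mouse was left out). CPT2 had 25.4, 26.9, 27.7, 29.4 and 33.8 RPKM in EAE and 27.4, 32.2, 34.0, 34.7 and 42.9 RPKM in Ctrl, with a value of -0.25 (95% interval -0.49 to -0.0091, adjusted p = 0.0796, limma) against Ctrl and -0.23 (adjusted p = 0.122, limma) against OVA. Without the fold threshold, 5 enzymes passed against Ctrl (4 lower, 1 higher) and 6 against OVA (all lower), where 47.8% and 39.1% of all genes passed.

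**Figure D2:**
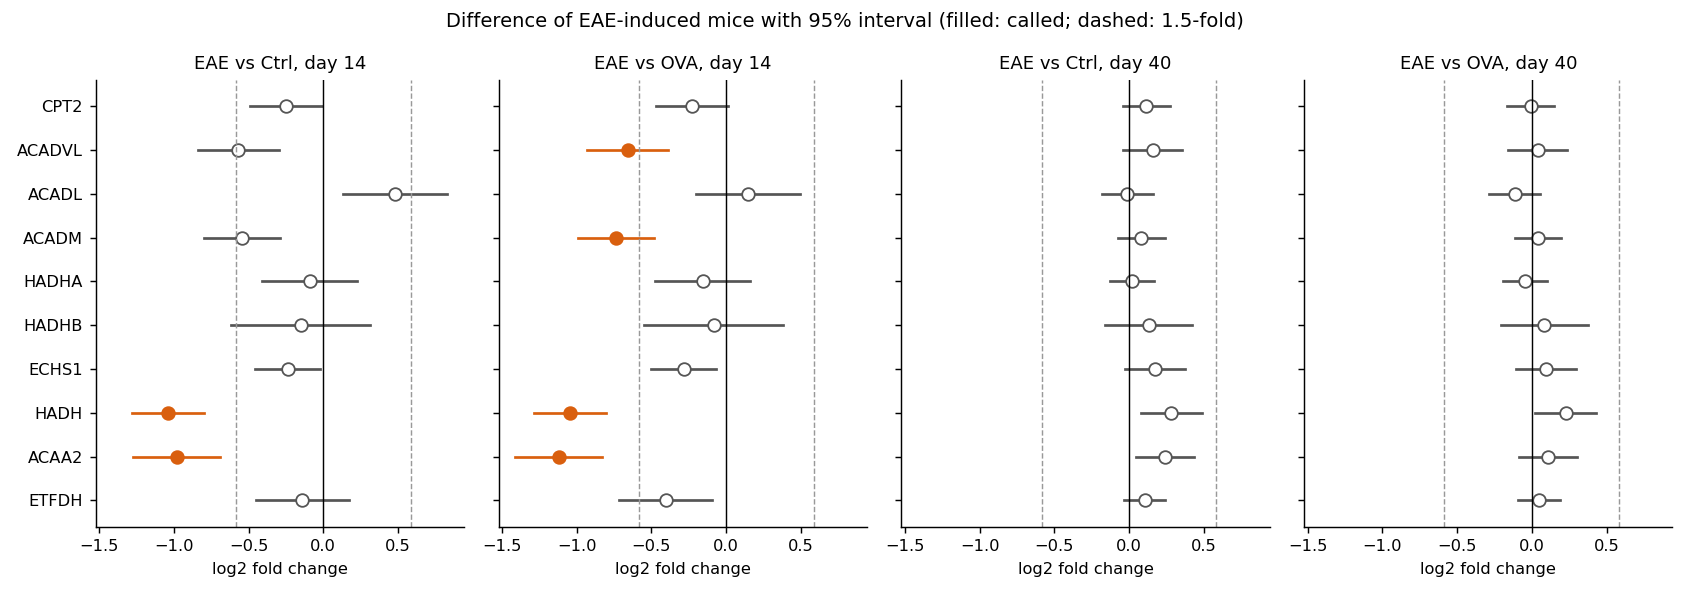
Log2 fold change of EAE against Ctrl and against OVA on each day (horizontal axes) for the 10 enzymes, with 95% intervals from limma; filled points were called and dashed lines mark a change of 1.5-fold. HADH and ACAA2 are filled in both panels of day 14, ACADM and ACADVL against OVA only, and no point is filled on day 40.

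Since a ratio of 2 genes within a mouse does not depend on how libraries were scaled, 4 ratios were compared in 6 comparisons each. ACADL to ACADM was 1.04, 1.39, 1.45, 1.54 and 1.78 in the EAE mice on day 14, 0.585, 0.691, 0.726, 0.730 and 0.784 in Ctrl and 0.634, 0.729, 0.749, 0.828 and 0.936 in OVA. Each EAE mouse had more ACADL than ACADM, in RPKM, and each of the 10 control mice had less. The mean log2 ratio was higher by 1.02 than in Ctrl and by 0.88 than in OVA, and each difference had the smallest p that a two-sided exact permutation test of 5 against 5 mice can give (0.00794). After Benjamini-Hochberg adjustment over the 24 tests it was 0.0952 in this exact test, so neither passed, and 0 of the 24 comparisons did (3 had an unadjusted p below 0.05, the third being EAE against OVA on day 40, with a difference of -0.16 and an adjusted p of 0.127). Of ACADL, ACADM and ACADVL together, ACADL held 39.3% ± 3.95 (SD, n = 5) in EAE on day 14, 24.0% ± 2.36 in Ctrl and 26.5% ± 2.84 in OVA, and between 23.2% and 25.2% in the 3 groups of day 40. ACADM held 27.6% ± 2.61 in EAE against 34.2% ± 2.51 in Ctrl, and ACADVL held 33.1% ± 1.38 against 41.9% ± 3.75.

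The other ratios showed no such separation. HADHA to HADHB had medians of 3.05 in Ctrl, 3.66 in OVA and 3.15 in EAE on day 14, and EAE differed by 0.061 on the log2 scale from Ctrl (adjusted p = 0.90, exact permutation test). The groups overlapped, with 1.89 to 3.92 in Ctrl and 2.32 to 3.99 in EAE. ACADVL to ACADM had medians of 1.15, 1.13 and 1.21 in the same groups, and EAE differed from Ctrl by -0.027 (adjusted p = 0.961, exact permutation test). CPT1B, the muscle form of the transferase that starts the shuttle, stood at a median of 0.124 of CPT2 in Ctrl and 0.139 in EAE (adjusted p = 0.542, exact permutation test). The level of CPT1B is uncertain, because the annotated transcript Gm44502 spans all 9458 bases of the gene and how shared reads were counted is not given in the sources used here.

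**Figure D3:**
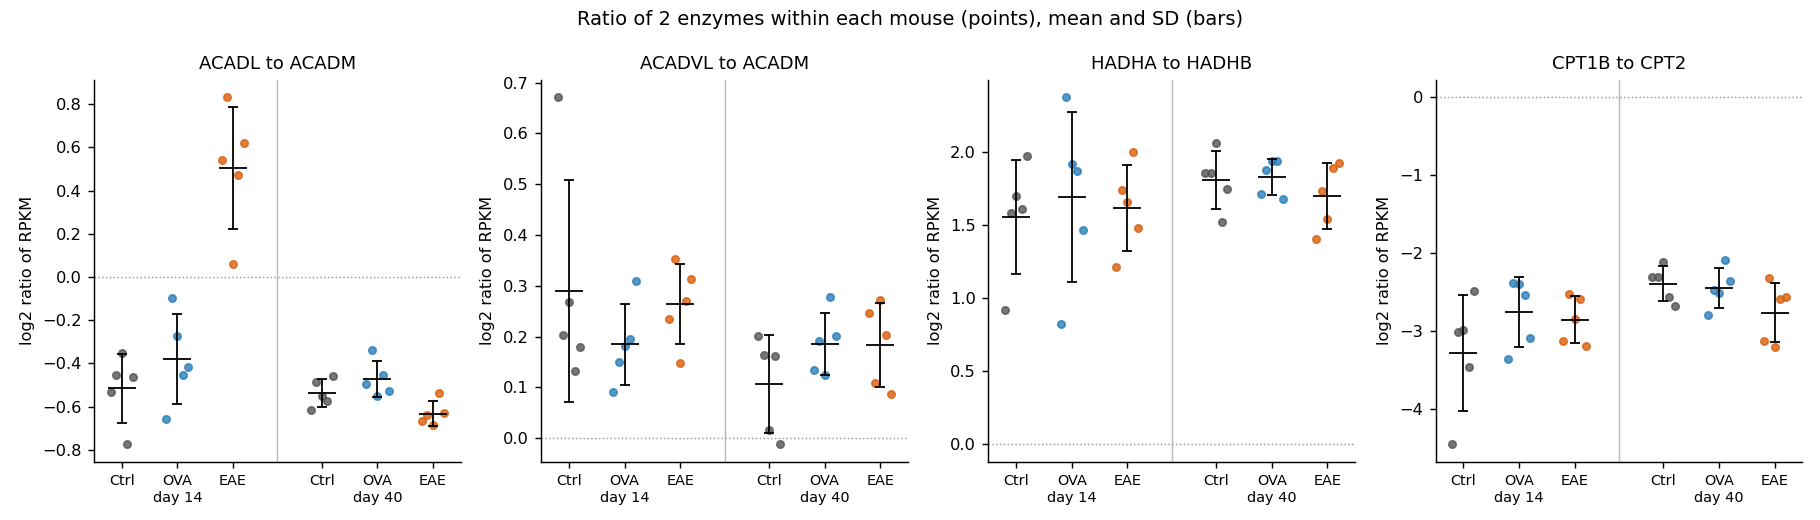
Log2 ratio of 2 genes in the same mouse (vertical axes) for 4 pairs, in 6 groups of 5 mice (points), with mean and SD (bars). The ACADL to ACADM ratio of the 5 EAE mice on day 14 lies above 0, between 1.04 and 1.78 on the linear scale, and that of all other mice lies below 0, while the groups of the other pairs overlap.

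OVA immunization alone moved none of the 10 enzymes past the test. Between OVA and Ctrl on day 14, 0 of 10 were called by limma and 0 had an unadjusted p below 0.05, where 0.142% of all 8471 genes were called and 9.69% had an unadjusted p below 0.05. The values ran from -0.067 for HADHB to 0.33 for ACADL (95% interval -0.019 to 0.68), with a median of 0.079 against -0.0039 for all genes. HADH differed by 0.0054 (95% interval -0.24 to 0.25) and ACAA2 by 0.14 (95% interval -0.15 to 0.43), and the interval of HADH holds no change of 1.5-fold in either direction. On day 40, 0 of 10 were called between OVA and Ctrl and 0 had an unadjusted p below 0.05, where 0% of all 8706 genes were called and 3.12% had such a p. The 10 values were all above 0 and small, from 0.041 for ACADM to 0.13 for ACAA2.

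On day 40 no enzyme was called between EAE and either control. Against Ctrl 0 of 10 were called by limma, where 0.46% of all 8691 genes were, and 2 had an unadjusted p below 0.05, where 27.9% of all genes had. Against OVA 0 of 10 were called, where 0.209% of 8598 genes were, and 1 had an unadjusted p below 0.05, where 17.4% of all genes had. HADH had 147, 152, 165, 177 and 191 RPKM in the EAE mice, 114, 123, 144, 147 and 158 RPKM in Ctrl and 128, 133, 142, 146 and 162 RPKM in OVA. The groups overlapped, although the EAE mean of 167 ± 18.0 RPKM (SD, n = 5) was the highest of the 3 on that day. The difference in HADH was 0.28 against Ctrl (95% interval 0.078 to 0.49, adjusted p = 0.0924, limma) and 0.23 against OVA (adjusted p = 0.236, limma).

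ACAA2 had 123, 126, 144, 146 and 167 RPKM in EAE on day 40 and 97.3, 118, 119.5, 131 and 132 RPKM in Ctrl, with a difference of 0.24 (95% interval 0.043 to 0.43, adjusted p = 0.119, limma). ACADL, with 136, 143, 147, 154 and 155 RPKM in EAE and 125, 142, 155, 159.8 and 162 RPKM in Ctrl, differed by -0.011 (95% interval -0.18 to 0.16). The other 7 enzymes lay between 0.022 (HADHA) and 0.17 (ECHS1) against Ctrl, and the median of the 10 was 0.12 against Ctrl and 0.045 against OVA, beside -0.050 and -0.042 for all genes. All 95% intervals against both controls on day 40 stayed within a change of 1.5-fold, so a difference of the size of HADH or ACAA2 on day 14 was outside each of them.

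An interaction contrast over all 30 mice asked if the effect of EAE was the same on both days. By this test, the EAE minus control difference of HADH, ACAA2, ACADM and ACADVL changed between day 14 and day 40 with either control. Both comparisons share the EAE mice. Against Ctrl 4 of 10 were called with a value above 0 and 0 below, where 11.7% of 9013 genes were called above and 20.9% below. Against OVA the 4 called with a value above 0 compared with 8.16% of 8935 genes, and 0 below with 13.7%. At any fold, 7 of 10 had an adjusted p below 0.05 against Ctrl and 6 against OVA, where 48.6% and 35.1% of all genes had. The EAE minus Ctrl difference of HADH was higher by 1.32 on day 40 (SE 0.15, adjusted p = 2.24e-07, limma) and that of ACAA2 by 1.22 (SE 0.17, adjusted p = 2.43e-06, limma). For ACADVL the change was 0.73 (SE 0.16, adjusted p = 0.000567, limma) and for ACADM 0.62 (SE 0.14, adjusted p = 0.000674, limma). Each of these 4 changes held a shift of EAE and a shift of Ctrl in the opposite direction. As day 40 minus day 14 in EAE and in Ctrl, they were 1.05 and -0.27 for HADH and 0.78 and -0.44 for ACAA2. For ACADVL they were 0.36 and -0.37, and for ACADM 0.44 and -0.19. The ACADM call against Ctrl was lost without mouse 3 of the Ctrl group on day 14 (0.53), without mouse 3 of the Ctrl group on day 40 (0.57) and after quantile normalization (0.53). ACADL had the opposite sign, at -0.49 against Ctrl (95% interval -0.87 to -0.11, adjusted p = 0.0313, limma), under the fold threshold. It was called lower against Ctrl without mouse 3 of the Ctrl group on day 14 (-0.63), without mouse 3 of the EAE group on day 14 (-0.59) and after quantile normalization (-0.59). Against OVA the ACADL change was -0.26 (95% interval -0.64 to 0.12, adjusted p = 0.274, limma) and did not pass the p threshold. The difference between OVA and Ctrl was not called for any of the 10 (0 at an unadjusted p below 0.05), where 0% of 8848 genes were called and 9.3% had such a p. The values of all genes had a median of -0.15 against Ctrl and -0.16 against OVA, which median-of-ratios scaling brought to -0.023 and -0.042, with the same 4 enzymes called.

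The levels in the control groups also differed between the days. The mean log2 level was lower on day 40 than on day 14 for 9 of the 10 enzymes in Ctrl, for all 10 in OVA and for 4 in EAE, although quantile normalization turned the sign of ACADM and HADHA in Ctrl, of HADHA in OVA and of CPT2, HADHA and HADHB in EAE, and median-of-ratios scaling that of ETFDH in Ctrl and CPT2 in EAE. In Ctrl 0 of 10 were called between the days, where 5.02% of 8788 genes were called higher on day 40 and 4.35% lower. In OVA 0 were called, where 2.25% and 1.71% of 8648 genes were. At any fold, 3 enzymes of Ctrl (CPT2, ACADVL and ACAA2) and 4 of OVA (ACADM, ACADL, ACADVL and ACAA2) had an adjusted p below 0.05 in limma, all lower on day 40, where 12.6% and 3.4% of all genes were lower by that rule. ACAA2, for example, differed by -0.44 in Ctrl (95% interval -0.68 to -0.20, adjusted p = 0.00971, limma) and by -0.45 in OVA (95% interval -0.69 to -0.20, adjusted p = 0.0152, limma), as log2 differences of day 40 minus day 14. After quantile normalization ACAA2 was at -0.22 in Ctrl and -0.26 in OVA, ACADVL at -0.16 and -0.14, and of these enzymes CPT2 in Ctrl (-0.33) alone kept an adjusted p below 0.05 in limma. The age of the mice cannot be told apart from the day.

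Within EAE, HADH and ACAA2 rose from day 14 to day 40 and ACADL fell. Of the 10 enzymes 2 were called higher and 1 lower, where 8.36% of 8709 genes were called higher and 12.7% lower. HADH rose by 1.05 on the log2 scale (SE 0.11, adjusted p = 5.42e-09, limma) and ACAA2 by 0.78 (SE 0.12, adjusted p = 4e-06, limma). ACADL went from 182 to 278 RPKM on day 14 to 136 to 155 RPKM on day 40, without overlap, a log2 difference of -0.70 (SE 0.13, adjusted p = 8.21e-05, limma). ACADM, at 0.44 (adjusted p = 0.000533, limma), ACADVL, at 0.36 (adjusted p = 0.00939, limma), and ETFDH, at 0.28 (adjusted p = 0.0443, limma), passed the p threshold without the fold threshold, so that 6 of 10 passed at any fold, where 49% of all genes did. CPT2, HADHA and HADHB had values of -0.028, -0.048 and -0.13.

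Summed over the 10 enzymes, the level was 1463 ± 244 RPKM (SD, n = 5) in Ctrl, 1588.5 ± 118 RPKM in OVA and 1134.5 ± 78.4 RPKM in EAE on day 14. The sums of the EAE mice, 1040.1 to 1256 RPKM, overlapped with those of Ctrl (1201 to 1834 RPKM) and lay below those of OVA (1422 to 1754 RPKM). On day 40 the means were 1210 ± 115 RPKM in Ctrl, 1278 ± 52.5 RPKM in OVA and 1324 ± 124 RPKM in EAE, and the groups overlapped.

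Over the 6 group means, the genes outside the list whose pattern lay nearest to the mean of the 10 enzymes were SLC25A3 (the mitochondrial phosphate carrier), MPI, SNAPC5, PYURF and MRPL19 (a mitochondrial ribosomal protein). Likeness was the root mean square difference of the centred log2 group means over 6 groups, and it was 0.026 for SLC25A3 and 0.036 for MRPL19 among 9049 genes searched. In SLC25A3 the centred log2 mean was 0.13 in Ctrl, 0.22 in OVA and -0.24 in EAE on day 14, and the mean of the enzymes was 0.14, 0.24 and -0.22. This is a description of 6 points that share their libraries.

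The rest of the fatty acid pathway was described by lists of genes chosen by function. Of all tested genes on day 14, 11.8% were called lower and 14.6% higher in EAE against Ctrl. Against OVA the shares were 9.28% and 11%. Of 13 other enzymes of mitochondrial beta-oxidation, 12 were tested against Ctrl on day 14 and 1 was called lower, ECI1, the isomerase for unsaturated chains, which went from 135 ± 27.4 RPKM in Ctrl (SD, n = 5) to 84.7 ± 12.3 RPKM in EAE (log2 fold change -0.66, adjusted p = 0.00231, limma). Against OVA 2 of 12 were called lower, ECI1 (-1.12) and ACOT13, a thioesterase of the matrix (-0.76, adjusted p = 0.000408, limma). The medians of the list were -0.071 and -0.21, closer to those of all genes (0.11 and 0.11) than the medians of the 10 enzymes were, and this distance was not tested.

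Genes of fatty acid uptake and activation moved in both directions, with 4 of 11 called higher and 4 lower against Ctrl, where 14.6% and 11.8% of all genes were. LPL, the lipoprotein lipase, had 187 ± 29.0 RPKM in Ctrl and 93.8 ± 27.8 RPKM in EAE (-1.03, adjusted p = 0.000159, limma). FABP3 (-0.98), SLC27A1 (-0.70) and ACSL5 (-0.65) were lower as well. ACSL6, an acyl-CoA synthetase, had 7.84 ± 1.96 RPKM in Ctrl and 46.2 ± 13.8 RPKM in EAE (2.53, adjusted p = 1.16e-06, limma), and ACSL3 (1.79), ACSL4 (0.62) and the acyl-CoA binding protein DBI (0.66) were higher. Against OVA, ACSL3 (1.81), ACSL6 (2.16) and DBI (0.65) were called higher, and LPL (-1.11), FABP3 (-0.93), SLC27A1 (-0.75) and ACSL5 (-0.59) lower.

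Of the carnitine shuttle and its control by malonyl-CoA, 1 of 6 tested genes was called, ACACB, which makes the malonyl-CoA that inhibits the shuttle. ACACB was higher in EAE, with 25.4 ± 4.55 RPKM in Ctrl and 44.7 ± 15.2 RPKM in EAE (0.77, adjusted p = 0.00897, limma). The median of this list against Ctrl was 0.14, with 2 of 6 values below 0. Between OVA and Ctrl on day 14 it was 0.21, with 0 of 7 below 0, so the sign of the list depended on the control. Against OVA 0 of 7 were called, although 5 of the 7 values were below 0 and their median was -0.33. The most abundant of them, CRAT, was not among those 5, with a value of 0.025 (adjusted p = 0.907, limma). Of the peroxisomal list, 2 of 13 genes were called lower against Ctrl, PHYH (-0.77, adjusted p = 5.65e-05, limma) and the thiolase ACAA1A (-0.68). Against OVA, PHYH alone was called (-0.80). PHYH acts on branched chains in alpha-oxidation, which is not beta-oxidation, so of these calls ACAA1A alone belongs to peroxisomal beta-oxidation. ACAA1A has a close paralog, ACAA1B, and reads could be split between them. Of ketone body use, OXCT1, the transferase that activates acetoacetate (-0.77, adjusted p = 0.000507, limma), and BDH1 (-0.94) were called lower, 2 of 4 in both comparisons.

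Among 12 regulators of the PPAR, ERR and PGC-1 families, 5 were called lower against each control, where 11.8% of all genes were called lower against Ctrl and 9.28% against OVA. The list did not move as a whole against Ctrl, with a median of -0.0026 and 6 of 12 values below 0. Against OVA the median was -0.27, with 7 of 12 below 0. PERM1, a muscle regulator that acts with PGC-1 and ERR, had 75.4 ± 9.12 RPKM in Ctrl, 103 ± 20.0 RPKM in OVA and 25.7 ± 12.5 RPKM in EAE (-1.69 against Ctrl, adjusted p = 0.000157, limma). ESRRA, the estrogen-related receptor alpha, had 68.1 ± 8.42 RPKM and 37.2 ± 5.65 RPKM in Ctrl and EAE (-0.88, adjusted p = 0.000112, limma). RXRG (-0.88), PPARGC1B (-0.73) and PPARA (-0.69) were the others called lower, while NRIP1, a corepressor, was called higher against Ctrl only (2.23, adjusted p = 0.00729, limma; 1.44 and 0.0705 against OVA). NRIP1 was above 3 RPKM on average in EAE alone (4.83 ± 1.96 RPKM, against 1.22 ± 1.01 in Ctrl and 2.11 ± 1.60 in OVA), so it was tested only because of the group where it was high. Of 6 tested genes known to respond to PPAR, UCP2 was called lower against Ctrl (-0.65), and UCP3 (-0.78), ANGPTL4 (-1.54) and PLIN5 (-0.88) against OVA. ANGPTL4 was above 3 RPKM in OVA (6.18 ± 2.83) and below it in EAE (1.95 ± 0.446), and so entered this comparison through OVA. The median of these PPAR-responsive genes was -0.12 against Ctrl, with 3 of 6 below 0, and -0.70 against OVA, with 5 of 6 below 0. Between OVA and Ctrl on day 14 it was 0.72, with 1 of 6 below 0 and 0 called. On day 40, 2 genes of these 7 lists were called against Ctrl, CPT1A (-0.76, adjusted p = 0.0197, limma) and UCP3 (-0.73, adjusted p = 0.0236, limma), both lower in EAE, and 0 against OVA. These calls of day 40 were fragile, since with a replicate block 0 genes of the whole table were called higher and 1 lower against Ctrl, and with all 30 mice in 1 model 0 and 0, instead of 6 and 34. Neither belongs to the 10 enzymes.

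**Figure D4:**
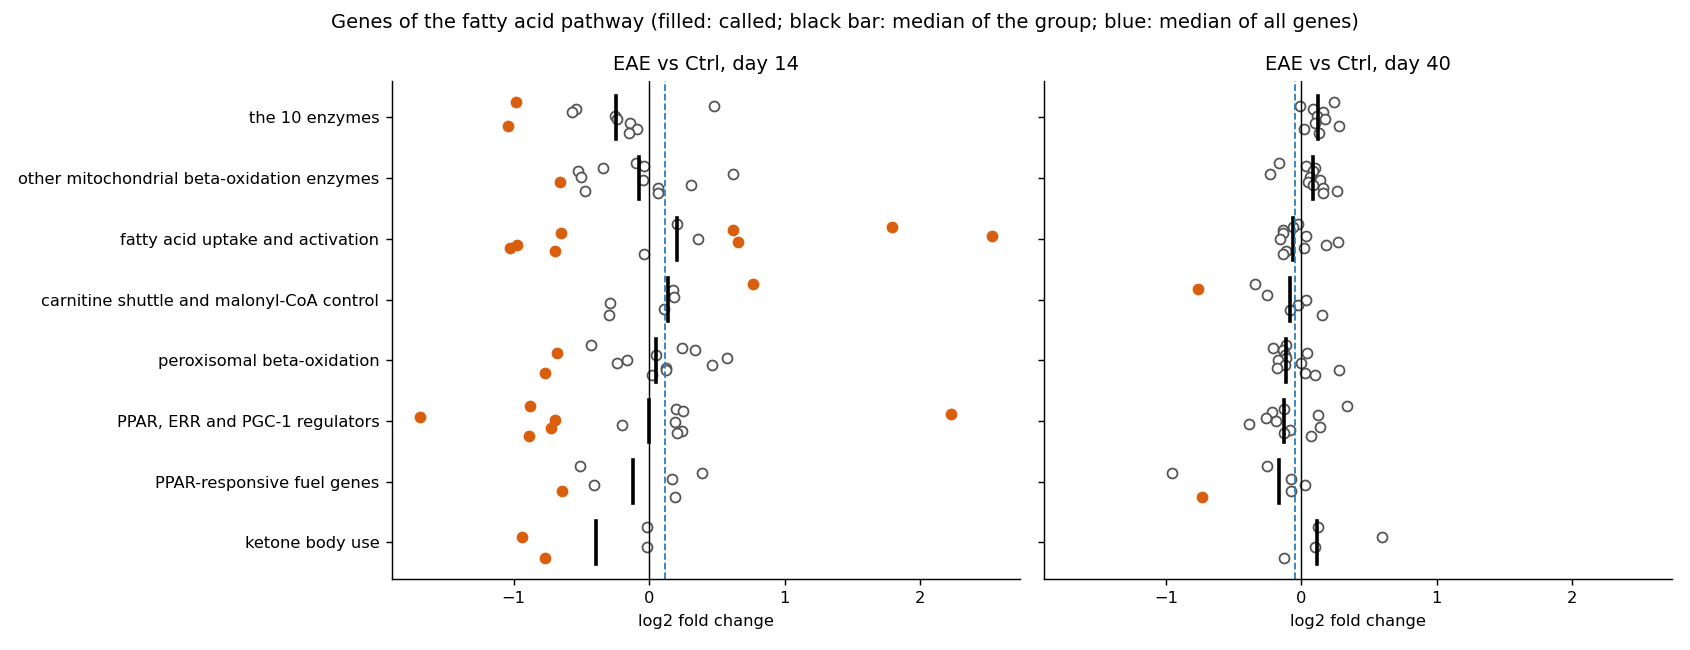
Log2 fold change of EAE against Ctrl on day 14 and day 40 (horizontal axes) for the tested genes of the 10 enzymes and of 7 other lists of the fatty acid pathway (rows). Filled points were called, black bars are the list medians and the dashed line is the median of all genes; on day 14 the median of the 10 enzymes is -0.24 and that of all genes 0.11.

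In the test of the change between the days, the other mitochondrial enzymes ECI1 (0.71), ETFB (0.74) and ACOT13 (0.61) were called with values above 0 against Ctrl, 3 of 12, and DECR1 (0.59) joined them against OVA, 4 of 12, where 11.7% and 8.16% of all genes were called above 0. Of the regulators RXRG (0.96), PPARGC1B (0.86), ESRRA (1.21) and PERM1 (1.81) were called above 0 and NRIP1 (-2.95) below 0 against Ctrl. Of uptake and activation LPL (1.05), FABP3 (1.16) and SLC27A1 (0.59) were called above 0, and ACSL3 (-1.85), ACSL4 (-0.75) and ACSL6 (-2.49) below 0. OXCT1 (0.64), BDH1 (1.53), ACAA1A (0.72) and PHYH (0.80) were called above 0, and ACACB (-1.11), PDK4 (-1.35) and UCP3 (-0.93) below 0. Against OVA, PPARA (0.87), RXRG (1.00), PPARGC1B (1.00), ESRRA (1.13), PERM1 (2.15), LPL (1.11), SLC27A1 (0.62), PHYH (0.80), OXCT1 (0.82), BDH1 (1.36) and ANGPTL4 (1.44) were called above 0, and ACSL3 (-2.02), ACSL6 (-2.18) and ACACB (-0.82) below 0. Within EAE, LPL (1.02) and ACSL5 (0.67) rose from day 14 to day 40, as did PHYH (0.91), OXCT1 (0.82), BDH1 (1.57), PPARA (0.61), RXRG (0.84), PPARGC1B (0.62), ESRRA (0.71) and PERM1 (1.76). ACSL3 (-1.78), ACSL6 (-2.11), DBI (-1.07), ACACB (-0.96), ACOT2 (-0.91) and NRIP1 (-1.90) fell. Control groups shifted as well, and a change against a control includes such shifts. In Ctrl, PDK4, UCP3 and CPT1A were called higher on day 40 than on day 14, and FABP3 and DBI lower. In OVA, ECI1, FABP3 and DBI were called lower. Of the genes known to respond to PPAR, 0 of 5 tested were called between the days in EAE.

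Markers of cell types also differed between EAE and Ctrl on day 14, where 11.8% of all genes were called lower. Of the fast fibre genes 2 of 9 were called lower (TNNC2 and PVALB, -1.47 to -0.93), and the sum was 54627 to 72753 RPKM in EAE and 77334 to 119230 RPKM in Ctrl. Of the slow fibre genes 4 of 9 were called lower (MYL2, MYL3, TNNC1 and TPM3, -1.67 to -0.79), and the sum was 1115 to 1905 RPKM in EAE and 1874.5 to 3083 RPKM in Ctrl. Of the fibroblast markers 6 of 7 were called lower (DCN, COL1A1, COL3A1, PI16, DPT and LUM, -3.77 to -0.70), and the sum was 316 to 502 RPKM in EAE and 870.3 to 1425 RPKM in Ctrl. Of the macrophage markers 5 of 8 were called lower (ADGRE1, CSF1R, C1QA, C1QB and LYZ2, -1.04 to -0.71), and the sum was 136 to 308 RPKM in EAE and 287 to 435 RPKM in Ctrl. Of the endothelial markers 3 of 6 were called lower (KDR, EMCN and CLDN5, -0.74 to -0.61), and the sum was 73.8 to 108 RPKM in EAE and 98.2 to 131 RPKM in Ctrl. Of the erythrocyte markers 4 of 4 tested were called lower (HBB-BS, HBA-A1, HBA-A2 and ALAS2, the last below 3 RPKM in EAE, -2.46 to -1.72), and the sum was 26.5 to 189 RPKM in EAE and 189 to 684 RPKM in Ctrl. Among white adipocyte markers 1 of 5 tested was called lower (CFD, -1.10), with sums of 307 to 487.5 and 459.6 to 689.6 RPKM, and of the Schwann cell markers 0 of 4 tested were called, with 71.5 to 111 and 102 to 114 RPKM. In OVA on day 14 the fast fibre sum was 70488 to 107210 RPKM, which overlapped with EAE. The macrophage, endothelial, white adipocyte and Schwann cell sums of OVA overlapped with EAE as well. Those of slow fibres, fibroblasts and erythrocytes lay above EAE. Markers were also called lower against OVA, where 9.28% of all genes were. They were 6 of 8 for macrophages, 2 of 6 for endothelium, 2 of 5 tested for white adipocytes and 0 of 4 tested for Schwann cells. For fast fibres they were 2 of 9, for slow fibres 4 of 9, for fibroblasts 5 of 7 and for erythrocytes 4 of 4 tested. The 7 neutrophil markers summed to 199.8 to 392 RPKM in EAE, 3.43 to 9.22 RPKM in Ctrl and 62.8 to 226 RPKM in OVA, and 0 of them were above 3 RPKM on average in Ctrl. The 4 that were tested against Ctrl (S100A8, S100A9, NGP and RETNLG) passed the filter only through EAE, where they were high, so their number is not a count of calls to rely on, and LTF, CAMP and LY6G were too low to be tested. Against OVA, S100A8 alone of the 4 tested was called higher. The other 3 had values below 0, and the median of the 4 was -0.91, so the higher sum in EAE did not hold for each marker. The T cell markers and UCP1 were too low to be tested. The part of these differences in the values of HADH, ACAA2, ACADM and ACADVL was not tested.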

How the data were processed

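RNA from the EDL of 30 mice had been sequenced by the authors as directional poly(A) libraries, aligned to mm10 with Subread and counted on RefSeq genes with featureCounts. The strand setting of the counting is not given in the sources used here. The deposited table held 1 column per mouse with log2 values. The deposited values reached at most 14.66 on the log2 scale and were 0.0001 in place of 0, and after conversion as log2(RPKM + 1), 64.6% of 6430 low values were whole multiples of 1 read (tolerance 0.05), against 34.3% without conversion, so the log2(RPKM + 1) scale was inferred from the values. Counts and the edgeR test of the authors were not used here.

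RPKM values were tested as log2(RPKM + 0.1) with limma 3.58.1 (R 4.3.3), with a mean-variance trend, over all genes with a mean above 3 RPKM in a compared group, separately for the 15 mice of each day and, for changes between days, over all 30 mice. The 0.1 makes fold changes of low genes smaller than those of RPKM. Genes were called at a Benjamini-Hochberg adjusted p below 0.05 over all tested genes and a fold change above 1.5. Ratios were compared by two-sided exact permutation tests. Python 3.11.15, numpy 2.4.6 and pandas 2.3.3 were used for summaries, and the fit was tested on simulated data. The members and lists were chosen with earlier results of these data known. The genes named were the 10 enzymes, the genes of the lists called in a comparison of EAE mice (where none was, the most abundant), and the 5 genes nearest in pattern, while marker genes were given by counts and sums. One called gene of the lists is not reported here.

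Depth was estimated from the value of 1 read, with a median of 21700000 reads per mouse. Pairs of mice within a group had a squared difference of at least 1.65 times the sampling variance, so none was taken for a repeat of another. The labels named no batch. Replicate numbers were shared by the groups but did not pair mice: same-numbered mice had correlations of their deviations of -0.73 to 0.70 on day 14 (7 of 15 above 0.1) and -0.55 to 0.17 on day 40 (1 of 15). Mice of different groups and different numbers had correlations of -0.74 to 0.76 on day 14 (24 of 60 above 0.1). On day 40 these were -0.60 to 0.56 (21 of 60). Some mice of different groups thus shared deviations whatever their numbers, and the cause was not tested. The labels do not say more of the mice than 1 muscle sample each, so p-values measure the spread between these samples. Of the symbols, 27 had been turned into dates and were not restored. Alternatives were other pseudocounts, filters, scalings and models, a replicate block and leaving out each mouse.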

Additional observations from a re-analysis of the deposited data

Results flagged for a closer look

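In 2 of the 60 groups of 5 mice (10 enzymes in 6 groups), 1 mouse lay further from its group than Dixon's 95% limit of 0.71 allows. ACADM was 182.75 RPKM in mouse 3 of Ctrl on day 40, while the other 4 mice had 218 to 231 RPKM. HADHA was 106 RPKM in mouse 4 of EAE on day 40, while the others had 121 to 127 RPKM. Such a limit marks about 1 in 20 independent groups by chance, but these 60 share their mice across the enzymes and are not independent. Mouse 3 of Ctrl on day 40 was also the lowest of its group for ACADVL (184.8 RPKM), HADH (114), ECHS1 (81.0) and ACAA2 (97.3). It was the highest for ETFDH (81.3 RPKM). Mouse 4 of EAE on day 40 was also the lowest for HADH (147 RPKM) and ECHS1 (89.7), but not for ACAA2 (126). The cause was not tested. Leaving out mouse 3 of Ctrl on day 40 took ACADM below the fold threshold in the change of EAE against Ctrl between the days (0.57).

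The effect of EAE differed between day 14 and day 40, by limma's interaction over all 30 mice, for 4 enzymes. Against Ctrl the change on the log2 scale was 0.62 for ACADM, 0.73 for ACADVL, 1.32 for HADH and 1.22 for ACAA2. Against OVA it was 0.78 for ACADM, 0.70 for ACADVL, 1.27 for HADH and 1.23 for ACAA2. The EAE mice enter both comparisons.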

How the results depend on the processing

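In 20 of 20 alternatives of each comparison on day 14, HADH and ACAA2 were called lower, and so were ACADM and ACADVL against OVA. Against Ctrl, ACADM was called in 3 of 20 and ACADVL in 5 of 20. With no fold threshold, 5 enzymes passed between EAE and Ctrl on day 14 instead of 2, 7 instead of 4 in its change between days, 3 instead of 0 between the days in Ctrl, 4 instead of 0 in OVA and 6 instead of 3 in EAE. Leaving out 1 mouse gave 2 to 4 enzymes for EAE against Ctrl on day 14, with 4 without mouse 5 of Ctrl. With the replicate block the counts of enzymes were 2 (EAE against Ctrl, day 14), 4 (EAE against OVA, day 14) and otherwise the same as without it, and 1335 genes were called higher and 1048 lower between EAE and Ctrl on day 14 instead of 1282 and 1036. On day 40 the block left 0 genes higher and 1 lower between EAE and Ctrl instead of 6 and 34, and 0 and 0 between EAE and OVA instead of 3 and 15. The 24 ratio tests also gave 0 calls under each alternative, but the smallest p of 0.00794 leaves little room for a call after adjustment over 24 tests.

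Values near 0 turned sign. Under quantile normalization, EAE against Ctrl on day 40 was -0.0023 for ACADM and -0.069 for HADHA, and EAE against OVA on day 40 was -0.017 for ACADM and -0.043 for ACADVL. Day 40 minus day 14 was 0.027 for ACADM and 0.046 for HADHA in Ctrl, 0.0070 for HADHA in OVA, and 0.11 for CPT2, 0.096 for HADHA and 0.021 for HADHB in EAE. Under median-of-ratios scaling ACADL was 0.081 (EAE against Ctrl, day 40), CPT2 0.064 and HADHA 0.025 (EAE against OVA, day 40), ETFDH -0.055 (days in Ctrl) and CPT2 0.0089 (days in EAE). With medians, the ACADVL to ACADM difference was 0.067 (EAE against Ctrl, day 14) and 0.011 (EAE against OVA, day 40).

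Leaving out 1 mouse gave -0.26 to -0.012 for ETFDH and -0.30 to -0.0014 for HADHB in EAE against Ctrl on day 14, and spanned 0 for HADHA (-0.15 to 0.016, EAE against Ctrl, day 14), HADHB (-0.20 to 0.031, EAE against OVA, day 14), ACADL (-0.073 to 0.021) and HADHA (-0.018 to 0.067) for EAE against Ctrl on day 40, and CPT2 (-0.051 to 0.039), ACADVL (-0.0017 to 0.086) and HADHB (-0.0097 to 0.18) for EAE against OVA on day 40. It also did for ETFDH between the days in Ctrl (-0.087 to 0.16) and for CPT2 (-0.070 to 0.033) and HADHA (-0.12 to 0.0073) in EAE. Among ratios, it did for HADHA to HADHB (-0.098 to 0.16 against Ctrl and -0.29 to 0.098 against OVA on day 14) and ACADVL to ACADM (-0.066 to 0.068 against Ctrl on day 14 and -0.024 to 0.022 against OVA on day 40). The cause was not tested.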

Other observations

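HADH and HADHA both carry 3-hydroxyacyl-CoA dehydrogenase activity, HADH for shorter and HADHA for longer chains, and ACAA2 and HADHB are thiolases of the same division. These pairs were chosen after their values were seen and were not tested. The ratio of HADH to HADHA, in RPKM within a mouse, had a median of 0.705 in EAE on day 14 (0.469 to 0.793), 1.25 in Ctrl (0.987 to 1.53) and 1.15 in OVA (0.956 to 1.58), without overlap between EAE and either control. On day 40 the medians were 1.39 in EAE, 1.11 in Ctrl and 1.16 in OVA. The ratio of ACAA2 to HADHB had a median of 1.90 in EAE on day 14 (1.63 to 3.15), 3.76 in Ctrl (2.63 to 4.31) and 4.31 in OVA (3.11 to 5.24), and the highest EAE mouse lay within the range of both controls. On day 40 the medians were 3.83 in EAE, 3.60 in Ctrl and 3.62 in OVA.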
